A study of Mus musculus with 4 samples.

Results

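Along the back-to-belly axis of the embryonic neural tube, progenitors are sorted into stripes, and each stripe is marked by its own set of transcription factors. The 10 genes described here encode such factors and were chosen by symbol from a list of neural tube patterning genes. Earlier results of these data were known when they were chosen. Zic1, Zic2, Olig3 and Msx3 mark dorsal progenitors. Pax6, Irx3, Irx5 and Dbx1 mark intermediate or broad domains, and Nkx6-1 and Olig2 mark ventral ones. All 10 were found among the 24831 genes of the count tables, and all 10 were among the 13602 genes with enough counts to be tested. As background, BMP and WNT ligands from the roof plate favour dorsal factors, while Sonic hedgehog from the notochord and floor plate favours ventral ones. Pairs of factors on either side of a stripe border are known to repress each other, and the pattern is read out later as distinct classes of spinal neurons.

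RNA was sequenced from somitic gastruloids of the mouse, which are embryonic stem cell aggregates that lengthen in culture and form somites and a neural tube-like tissue. Both groups carried the same alleles, the E14 triple reporter line with HA and the FKBP12 F36V degron fused to endogenous Zeb2, a zinc finger transcription factor, and both were started from 300 cells per well, given 3 μM CHIR99021 (an activator of WNT signalling) at 48 h and moved to 10% Matrigel at 96 h. One group of 2 libraries received 100 nM dTAG-13, which directs the tagged protein to degradation, at 72 h and 96 h. The other 2 libraries are labelled untreated, while DMSO is given as the control in the protocol for growth. The labels leave unsaid whether the line is a single clone, and ZEB2 protein was not measured in these files. Separate cultures are not stated for the replicates, and p-values therefore reflect the spread between these libraries alone, which may be technical.

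Libraries held 11491330 to 12716172 reads counted in genes, so 1 read was worth 0.0753 to 0.0890 CPM, counts scaled to a common library size after normalisation for library composition. Untreated replicate 1 had the most reads outside genes, 35.65%, against 24.12% to 29.23% in the other 3 libraries. Markers of the labelled tissue were present in all 4 libraries: the 7 somite markers summed to 248 and 130.2 CPM in untreated replicates 1 and 2 and to 120.4 and 66.3 CPM in dTAG-13 libraries, and 1 of them, Pax1, stayed under 1 CPM on average. Markers of neural progenitors, which are not named in the label, were present as well, with none of the 12 under 1 CPM on average.

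The stretch just upstream of the start site is shown for 4 members whose values carry the comparison below. Irx3 was the member with the smallest unadjusted p, Olig2 and Olig3 are paralogs from opposite ends of the axis, and Dbx1 had a difference among the largest of the 10. The sequences are the 250 bases before each start in RefSeq (GRCm38.p6), read 5′ to 3′ on the gene's strand. Capitals mark 3 short motifs, each searched on both strands. The first is CACCT, known to be bound by ZEB factors. The second, TATAAA, has the letters of the TATA box, and the third has those of the CCAAT box, wherever in the window they fall.
Irx3 (chr8:91801655-91801904, minus strand): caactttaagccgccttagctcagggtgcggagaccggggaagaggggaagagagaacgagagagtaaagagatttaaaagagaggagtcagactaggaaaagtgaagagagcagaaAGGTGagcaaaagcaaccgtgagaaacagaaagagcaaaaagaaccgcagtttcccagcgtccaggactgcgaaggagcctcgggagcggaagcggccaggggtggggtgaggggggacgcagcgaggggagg
Dbx1 (chr7:49636836-49637085, minus strand): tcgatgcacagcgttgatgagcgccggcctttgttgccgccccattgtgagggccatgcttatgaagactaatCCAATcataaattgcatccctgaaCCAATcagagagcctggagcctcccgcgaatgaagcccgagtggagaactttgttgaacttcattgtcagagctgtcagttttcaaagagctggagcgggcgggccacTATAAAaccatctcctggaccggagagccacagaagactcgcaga
Olig2 (chr16:91225300-91225549, plus strand): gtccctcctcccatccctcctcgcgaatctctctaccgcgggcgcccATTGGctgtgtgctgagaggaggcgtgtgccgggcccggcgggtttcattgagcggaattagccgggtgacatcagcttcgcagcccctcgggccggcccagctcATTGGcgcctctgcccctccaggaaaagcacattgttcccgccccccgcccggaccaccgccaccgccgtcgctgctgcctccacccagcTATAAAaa
Olig3 (chr10:19356289-19356538, plus strand): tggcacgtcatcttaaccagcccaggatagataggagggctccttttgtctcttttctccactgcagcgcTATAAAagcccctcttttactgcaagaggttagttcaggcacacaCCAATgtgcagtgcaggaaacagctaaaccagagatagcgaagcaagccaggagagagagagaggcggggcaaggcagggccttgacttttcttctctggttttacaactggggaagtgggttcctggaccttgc

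The table of promoters held 8 of the 10 members, with 9 upstream stretches in all since Pax6 has 2. CACCT occurred in 1 of the 9, that of Irx3, at 133 bases before the start, whereas 46.0% of all 32851 promoters hold it in the same window. The longer CACCTG, which contains CACCT, occurred in 0 of the 9 and in 17.2% of all promoters. GACCACCCA, the letters bound by the GLI factors of hedgehog signalling, occurred in 0 of the 9 and in 0.225% of all. TATAAA was found in 4 of the 9 (Olig2, Olig3, Dbx1 and Msx3) against 12.4% of all. It began 8, 180, 45 and 28 bases before the start in that order, in Msx3 on the other strand. CCAAT was found in 6 of the 9 against 33.8% of all. Pax6, Olig2, Olig3, Dbx1, Msx3 and Zic1 were the 6 genes with CCAAT. Matches describe the letters in these windows only.

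The 10 genes differed widely in abundance. Per kilobase of exon, the order of the untreated means began with Zic2, a zinc finger factor of the dorsal neural tube that is also expressed in earlier epiblast-like cells, at 33.7 ± 18.7 CPM per kb (SD, n = 2). Irx3, an Iroquois homeobox factor, followed at 20.8 ± 5.37 CPM per kb, and its ranges overlapped those of Zic2. Irx5, the Iroquois gene next to Irx3, stood at 4.45 ± 0.633 CPM per kb, below both Irx3 libraries and not separated from Olig3, at 3.78 ± 3.40 CPM per kb. From Olig3 on, through Dbx1, Nkx6-1, Pax6, Zic1 and Msx3, each gene overlapped the next. Olig2 was last, at 0.419 ± 0.00365 CPM per kb, below both Msx3 libraries. With dTAG-13 the first 4 places were taken by the same 4 genes in the same order, and Olig2 was again last, at 0.0505 ± 0.0240 CPM per kb. Exon lengths are from GENCODE, and the 11.69 kb of Pax6 pools several transcript forms, so its level per kilobase is a low estimate.

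With dTAG-13, both ventral and all 4 intermediate factors were at lower levels than in untreated gastruloids. The dorsal factors were divided: Zic1 and Msx3 were lower as well, without overlap, while the groups of Zic2 and Olig3 overlapped. Across the 10 members the log2 fold change ranged from -2.96 for Olig2 to -0.04 for Zic2, and all 10 values were below 0, as were 49.1% of all genes tested. Both dTAG-13 libraries lay below both untreated libraries for 8 of the 10 members, against 11.9% of all genes, and 9 of 10 were lower in both replicate numbers, against 23.9% of all genes. Values of -1 or less were reached by 7 of 10 members and by 1.15% of all genes. By edgeR's quasi-likelihood test with Benjamini-Hochberg adjustment over all 13602 genes, 0 of the 10 members and 0% of all genes had an adjusted p under 0.05. At an unadjusted p under 0.05, edgeR gave 6 members as lower, against 1.23% of all genes, and 0 as higher, against 2.29% of all genes. DESeq2, run as an alternative on the same genes, gave an adjusted p to 6 of the 10 members and called 1 of them, Irx3, as lower, against 0.119% of all genes called lower. These fits leave out the replicate number, whose meaning the labels do not give. With the number as a block, edgeR called 6 members as lower, against 1.77% of all genes, as set out in the closing section. Nkx6-1, Olig2, Dbx1 and Msx3 passed the filter on low counts only through the untreated libraries, so a low value with dTAG-13 was built into their passing. All of them count among the 8 members without overlap and the 7 at -1 or less. Nkx6-1, Olig2 and Dbx1 are also among the 6 at an unadjusted p under 0.05 by edgeR. The 10 genes were chosen with earlier results of these data known, so the shares beside all genes are no test.

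**Figure D1:**
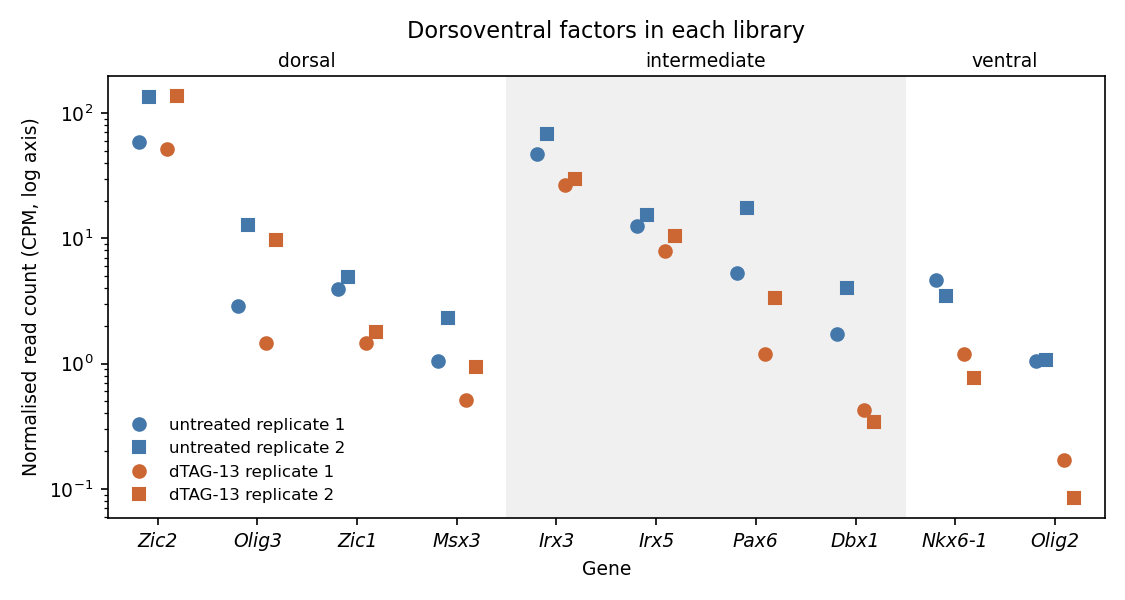
Normalised read count (CPM, log axis) of the 10 genes in each of the 4 libraries, with circles for replicate 1 and squares for replicate 2, ordered by position along the dorsoventral axis. For 8 genes both dTAG-13 libraries lie below both untreated ones, and for Zic2 and Olig3 the replicate numbers are further apart than the groups.

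Among the ventral factors, Nkx6-1, a homeobox repressor that defines ventral progenitors including those of motor neurons (on GRCm38.p6, chromosome 5, 101659184 to 101664711), was at 4.67 and 3.47 CPM in untreated replicates 1 and 2 and at 1.19 and 0.764 CPM in dTAG-13 libraries. The groups did not overlap, and both dTAG-13 libraries were under 1.2 CPM. Its log2 fold change was -2.05 ± 0.47 (SE; edgeR adjusted p = 0.790), and it was lower by 3.91-fold in number 1 (95% exact interval of the counts 2.16 to 7.56) and by 4.54-fold in number 2 (2.16 to 10.7). Olig2, the basic helix-loop-helix factor of motor neuron progenitors (chromosome 16, 91225550 to 91228677), was counted 14 and 12 times in the untreated libraries and 2 and 1 times with dTAG-13, that is 1.05 and 1.07 CPM against 0.171 and 0.0849 CPM. The untreated libraries sat close together and both dTAG-13 libraries were near the level of single reads. The counting interval was accordingly wide: 6.18-fold lower in number 1 (1.42 to 56.0) and 12.6-fold lower in number 2 (1.86 to 537), with a log2 fold change of -2.96 ± 0.72 and an adjusted p of 0.840 by edgeR. Such intervals hold for counting error alone, because PCR reads lacking molecular identifiers are not independent molecules.

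Of the intermediate factors, Dbx1, a homeobox factor of the progenitors of commissural interneurons in the middle of the cord (chromosome 7, 49631499 to 49636835), was at 1.73 and 4.004 CPM in untreated libraries and at 0.427 and 0.340 CPM in dTAG-13 libraries. Untreated replicate 2 was the high library, and both dTAG-13 libraries, with 5 and 4 reads, were below both. Its log2 fold change of -2.86 ± 0.65 had an adjusted p of 0.774 by edgeR, and Dbx1 was 4.06-fold lower in number 1 (1.51 to 13.7) and 11.8-fold lower in number 2 (4.30 to 45.1). Pax6, a paired-box and homeobox factor of intermediate and ventral progenitors (chromosome 2, 105668896 to 105698410), was at 5.27 and 17.6 CPM in untreated libraries and at 1.19 and 3.31 CPM in dTAG-13 libraries. In each group replicate 2 was the higher library, and the groups did not overlap. The log2 fold change of Pax6 was -2.33 ± 0.79 (adjusted p = 1.00 by edgeR), while within the numbers it was 4.42-fold lower (2.46 to 8.49) and 5.32-fold lower (3.76 to 7.70). Leaving out untreated replicate 2 took the log2 fold change of Pax6 to -1.22.

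Irx3 and Irx5 lie 556142 bases apart on chromosome 8 (91798511 to 91801654 and 92357796 to 92361456) and encode related homeobox factors whose domain ends ventrally at the border of motor neuron progenitors. Irx3 was at 47.1 and 68.1 CPM in untreated libraries and at 26.9 and 29.9 CPM in dTAG-13 libraries. The dTAG-13 libraries were close together and below both untreated ones. Its log2 fold change was -1.02 ± 0.21, with an adjusted p of 0.774 by edgeR and of 0.0435 by DESeq2. Irx5 was at 12.5 and 15.3 CPM in untreated libraries and at 7.93 and 10.4 CPM in dTAG-13 libraries, also without overlap, a log2 fold change of -0.60 ± 0.27 (adjusted p = 1.00 by edgeR). Within a library, reads of Irx5 made up 21.0% (95% exact interval 18.2% to 24.0%) and 18.4% (15.9% to 21.0%) of the reads of both genes in the untreated libraries, and 22.8% (18.8% to 27.2%) and 25.9% (22.0% to 30.1%) with dTAG-13. In number 2 these intervals, which cover counting error alone, did not overlap, and in number 1 they did. Fto, the coding gene on the other side of Irx3, had 93.3 and 111.3 CPM in untreated libraries and 112.3 and 100.8 CPM in dTAG-13 libraries, and Irx6, on the far side of Irx5, was at 0.151 CPM or less in each library.

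Of the dorsal factors, Zic1, a zinc finger factor of the dorsal neural tube and of somites (chromosome 9, 91358058 to 91365768), was at 3.92 and 4.89 CPM in untreated libraries and at 1.45 and 1.78 CPM in dTAG-13 libraries. The groups were clearly apart, and the difference was much alike in both numbers, 2.701-fold lower (1.54 to 4.98) and 2.74-fold lower (1.63 to 4.78). Its log2 fold change was -1.44 ± 0.41 (adjusted p = 0.956 by edgeR). Msx3, a homeobox gene whose expression is known to be confined to the dorsal neural tube (chromosome 7, 140046157 to 140049088), was at 1.05 and 2.31 CPM in untreated libraries and at 0.512 and 0.934 CPM in dTAG-13 libraries. These did not overlap, but dTAG-13 replicate 2 lay just under untreated replicate 1, and in number 1 the counting interval of the ratio reached 1, from 0.153 to 1.344. The log2 fold change of Msx3 was -1.20 ± 0.63 (adjusted p = 1.00 by edgeR), and -0.54 without untreated replicate 2.

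Zic2 and Olig3 were the members whose groups overlapped. Zic2 (chromosome 14, 122475384 to 122480328) was at 59.1 and 135 CPM in untreated libraries and at 51.7 and 137 CPM in dTAG-13 libraries. Replicate 2 was the high library in each group, and the group difference, a log2 fold change of -0.04 ± 0.70 (adjusted p = 1.00 by edgeR), was small beside it. Within number 1 the ratio of dTAG-13 to untreated was 0.875 (0.786 to 0.975) and within number 2 it was 1.02 (0.947 to 1.09). Olig3, a basic helix-loop-helix factor of the most dorsal interneuron progenitors (chromosome 10, 19356539 to 19358604), was at 2.86 and 12.8 CPM in untreated libraries and at 1.45 and 9.68 CPM in dTAG-13 libraries. It was lower within each number, by 1.97-fold (1.09 to 3.73) and 1.32-fold (1.03 to 1.71), yet dTAG-13 replicate 2 was above untreated replicate 1, and the log2 fold change was -0.49 ± 1.18 (adjusted p = 1.00 by edgeR). Both values turn positive without untreated replicate 2 (0.68 for Zic2 and 0.96 for Olig3), as they do when dTAG-13 replicate 1 is left out (0.50 and 0.31).

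**Figure D2:**
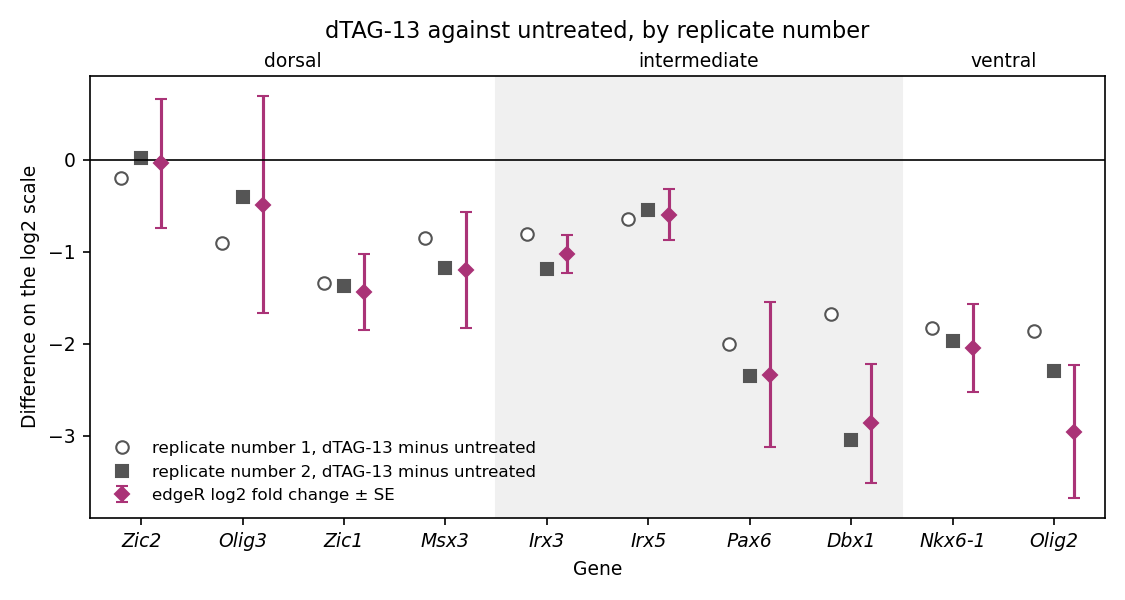
Difference between dTAG-13 and untreated on the log2 scale for each gene, within replicate number 1 (open circles, log2 CPM with a prior count of 2), within number 2 (squares), and as the edgeR log2 fold change with its SE (diamonds). Dbx1, Olig2, Pax6 and Nkx6-1 lie lowest, and Zic2 and Olig3 have errors wider than their differences.

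The positions were then set side by side. The median log2 fold change was -2.50 for the 2 ventral members, -1.68 for the 4 intermediate members and -0.84 for the 4 dorsal members, against 0.00404 over all genes tested. Single genes did not keep to that order: dorsal Zic1 and Msx3 lay below intermediate Irx3 and Irx5, and ventral Nkx6-1 lay above intermediate Pax6 and Dbx1. Both ventral members, Dbx1 and Msx3 passed the filter through the untreated libraries alone, which bears on these medians. With at least 50 counts in 2 libraries the medians were -0.50 dorsal and -1.04 intermediate, and no ventral member was left. The dorsal median turned to 0.071 without untreated replicate 2, to -0.26 on leaving out dTAG-13 replicate 1, and it reached -1.66 on leaving out dTAG-13 replicate 2, and the intermediate median was -0.98 without untreated replicate 2, while the ventral median stayed between -2.95 and -2.18 with any one library left out. Within replicate number 1 the medians of the differences in log2 CPM were -0.88 dorsal, -1.24 intermediate and -1.84 ventral, and within number 2 they were -0.79, -1.77 and -2.13.

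A balance of dorsal over other factors was taken in each library as the mean log2 CPM of the 4 dorsal members minus that of the 6 intermediate and ventral members. Library size largely cancels in it, but the prior count of 2 draws in the values of genes with few reads. It was -0.07 and 0.54 in untreated replicates 1 and 2 and 0.57 and 1.70 with dTAG-13. Both dTAG-13 libraries were above both untreated ones, although dTAG-13 replicate 1 and untreated replicate 2 differed by little. The balance was higher with dTAG-13 by 0.65 in number 1 and by 1.17 in number 2, and the difference of the group means was 0.91 (1.05 with a prior count of 0.5). Of the 6 intermediate and ventral members 3 had passed the filter only through the untreated libraries, as had 1 of the 4 dorsal members, and with at least 50 counts in 2 libraries the difference was 0.56. Against the ventral members alone it was higher by 1.02 and 1.40, and against the intermediate members alone by 0.46 and 1.05. The difference of the group means was 0.34 on leaving out dTAG-13 replicate 2, 1.47 on leaving out replicate 1 of that group, and 0.60 without untreated replicate 1. No test was run on this score, since the genes were chosen with results of these libraries known.

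**Figure D3:**
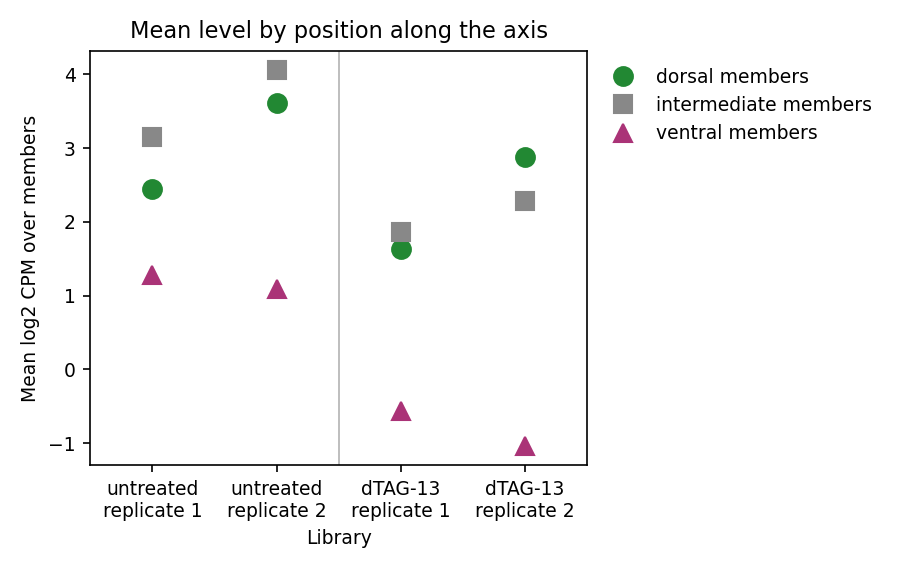
Mean log2 CPM (prior count 2) of the 4 dorsal, 4 intermediate and 2 ventral members in each library. In both untreated libraries the intermediate mean is above the dorsal mean, in dTAG-13 replicate 2 it is below it, and the ventral mean is above 1 in the untreated libraries and below 0 with dTAG-13.

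Ratios of reads between members within a library were then taken against Olig3 or Zic2. These are the members whose groups overlapped, so a lower share against them in part restates the values above. Olig2 and Nkx6-1 had also passed the filter only through the untreated libraries. Reads of Olig2 were 26.9% of the reads of Olig2 and Olig3 in untreated replicate 1 (95% exact interval 15.6% to 41.0%) and 7.69% in untreated replicate 2 (4.04% to 13.1%), and 10.5% (1.30% to 33.1%) and 0.870% (0.0220% to 4.75%) with dTAG-13. Within each number the share was lower with dTAG-13, but the intervals overlapped. Nkx6-1 made up 62.0% (51.7% to 71.5%) and 21.3% (15.6% to 28.0%) of the reads of Nkx6-1 and Olig3 untreated, and 45.2% (27.3% to 64.0%) and 7.32% (3.40% to 13.4%) with dTAG-13. This share differed between the replicate numbers at least as much as between the groups, and its intervals within number 2 did not overlap. Pax6 made up 8.20% (6.45% to 10.2%) and 11.5% (10.1% to 13.1%) of the reads of Pax6 and Zic2 untreated and 2.26% (1.24% to 3.76%) and 2.36% (1.68% to 3.21%) with dTAG-13, with no overlap in either number. Zic1 was also lower against Zic2 in both numbers, with 6.22% (4.68% to 8.08%) and 3.497% (2.64% to 4.53%) of the reads of Zic1 and Zic2 untreated against 2.73% (1.60% to 4.33%) and 1.28% (0.795% to 1.95%) with dTAG-13. These intervals did not overlap in either number, although both genes are dorsal, so a lower share was not confined to ventral and intermediate members. Those of the 2 untreated libraries did not overlap each other either. All intervals of these shares cover counting error within a library and leave out the spread between replicates.

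The members also differed between the replicate numbers, and not all in the same way. Olig3 was higher in replicate 2 than in replicate 1 by 2.10 on the log2 scale in untreated gastruloids and by 2.61 with dTAG-13, Pax6 by 1.71 and 1.35, and Zic2 by 1.19 and 1.41. These 3 of 10 members were at least 2-fold higher in replicate 2 in both groups, against 1.24% of all genes. Nkx6-1 went the other way, with differences of -0.41 and -0.55, and Zic1 and Irx5 were within 0.4 in both groups. For Olig3 and Zic2 the difference between numbers was thus larger than that between the groups, and for Nkx6-1, Zic1, Irx3 and Irx5 it was smaller.

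**Figure D4:**
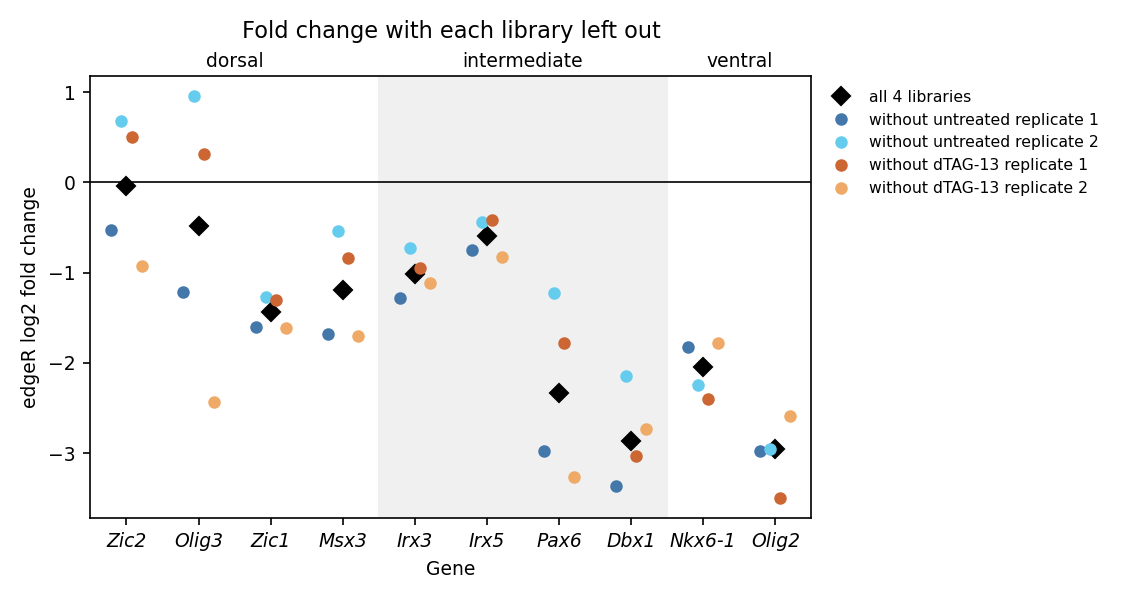
edgeR log2 fold change of each gene with all 4 libraries (diamonds) and with each library left out in turn (circles). Values for Zic2 and Olig3 lie on both sides of 0, those of the other 8 genes stay below it, and Pax6 moves from -3.26 to -1.22.

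Markers of neural progenitors moved with these genes. Of the 12 markers, which share no gene with the members, 11 were lower in both numbers, against 23.9% of all genes. Their summed level was 599.5 and 782 CPM in untreated libraries and 476 and 435 CPM in dTAG-13 libraries. Cdh2, Ptn and Sox2 were the highest of the 12, at 235, 127 and 104 CPM in untreated replicate 1, and dominate that sum. In bulk RNA, fewer neural cells and less RNA per cell cannot be told apart. The mean log2 CPM of the markers was 4.49 and 4.92 untreated and 3.70 and 3.62 with dTAG-13, a difference of -1.05. Relative to that mean, Irx3 was at 1.07 and 1.18 untreated and at 1.06 and 1.29 with dTAG-13, so its level per neural marker was much alike in the 4 libraries. Pax6 was at -2.05 and -0.76 and then at -3.25 and -1.82, lower within each number and overlapping between the groups. Dbx1 was at -3.56 and -2.86 against -4.45 and -4.60, Nkx6-1 at -2.22 and -3.05 against -3.25 and -3.72, and Olig2 at -4.20 and -4.61 against -5.27 and -5.61, and for these 3 the groups did not overlap. However, these 3 had passed the filter only through the untreated libraries and had 1 to 14 reads per library with dTAG-13. A low value with dTAG-13 was thus built into their passing. Zic2 stood higher relative to the markers with dTAG-13 by 0.60 and 1.32 within the numbers, and intermediate Irx5 by 0.15 and 0.76. Dorsal Zic1 stood lower, with differences of -0.55 and -0.076, while Olig3 (-0.11 and 0.90) and Msx3 (-0.057 and 0.13) had opposite signs in the 2 numbers.

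Other cell types moved too. The 8 surface ectoderm markers were all higher in both numbers, against 27.7% of all genes. They summed to 249.1 and 352 CPM in untreated libraries and to 432 and 904 CPM in dTAG-13 libraries, with none under 1 CPM on average. Median log2 fold changes were -1.04 for somite and -0.70 for presomitic mesoderm markers, 0.68 for gut endoderm, 0.41 for pluripotent cells, 0.71 for cardiac and lateral plate and -0.33 for neuromesodermal progenitors. They were -0.31 for neurons, -0.32 for endothelium, -0.10 for notochord and -0.07 for neural crest, whose Sox10 and Foxd3 were under 1 CPM on average. The part that these cell types have in the values of the 10 members was not tested.

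Of 45 other genes of the dorsoventral axis, 27 had enough counts to be tested. Their median log2 fold change was -0.13, and 11 were lower and 9 higher in both numbers, against 23.9% and 27.7% of all genes. In edgeR 0 passed over all genes (at an unadjusted p under 0.05, Rspo1, Pax3 and Prdm8, the last singled out after its values were seen, were lower, and Msx2 and Foxa2 higher). Among the 7 roof plate genes tested, Msx2, a homeobox gene of the roof plate, limb and surface ectoderm and a target of BMP signalling, was at 2.26 and 1.16 CPM in untreated libraries and at 9.04 and 11.3 CPM in dTAG-13 libraries. The groups were far apart, and its log2 fold change of 2.55 ± 0.43 had an adjusted p of 0.774 by edgeR and of 0.00381 by DESeq2, which called 0.221% of all genes as higher. Msx1, its paralog, was at 18.1 and 35.1 CPM in untreated libraries and at 41.5 and 106 CPM in dTAG-13 libraries (log2 fold change 1.47 ± 0.63), and Lmx1b, a LIM homeobox gene singled out after its values were seen, was at 10.5 and 22.3 CPM against 26.7 and 82.4 CPM. These were the 3 of 7 with both dTAG-13 libraries above both untreated ones, against 14.4% of all genes. Roof plate genes without such a shift included Rspo1, a WNT agonist at 3.99 and 4.18 CPM in untreated libraries and 1.45 and 2.46 CPM in dTAG-13 libraries, and Gdf7 and Wnt1, which stayed under 1 CPM on average, so the list did not move as one (median 0.05).

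**Figure D5:**
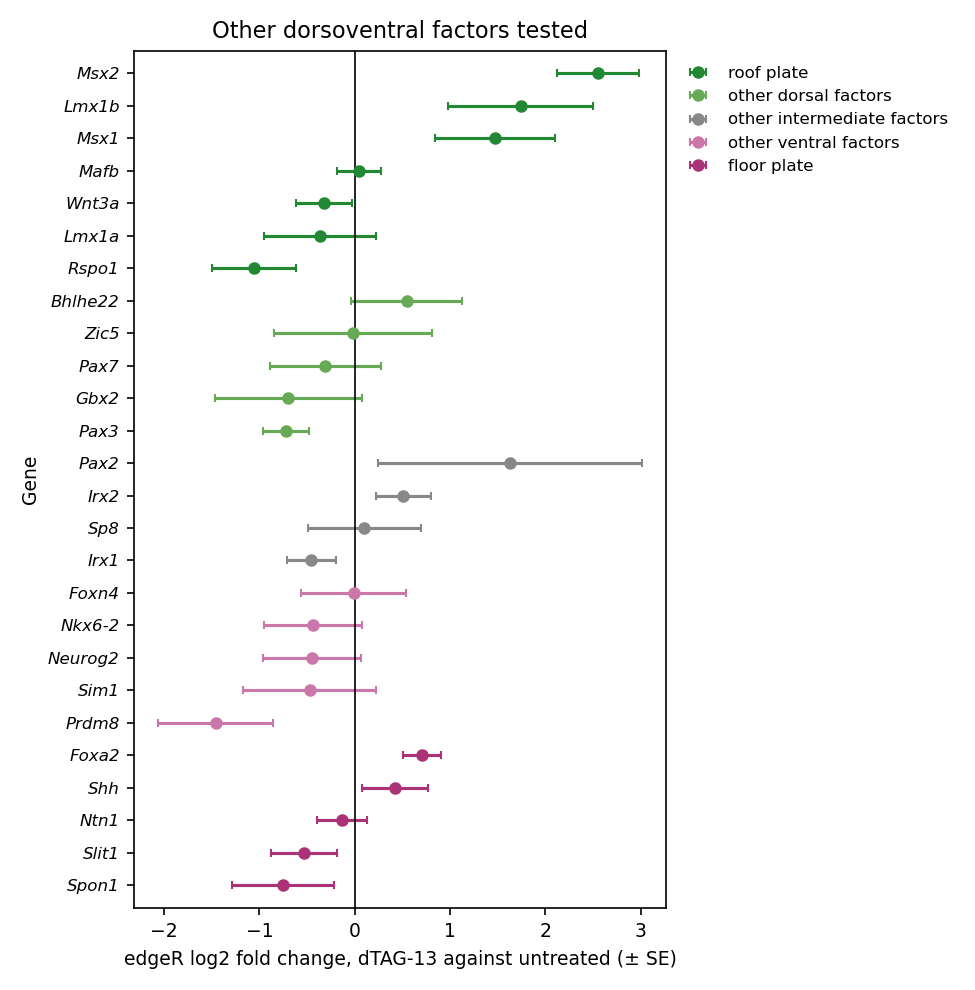
edgeR log2 fold change with its SE for the other dorsoventral genes tested and reported here, coloured by list. Msx2, Lmx1b, Pax2 and Msx1 lie above 1, Rspo1 and Prdm8 lie below -1, and the other genes shown are within 1 of 0.

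The other dorsal list had 6 of 14 genes tested, with a median of -0.16. Pax3, a paired-box factor shared with somites, was at 21.9 and 16.7 CPM in untreated libraries and 10.8 and 12.7 CPM in dTAG-13 libraries (log2 fold change -0.72 ± 0.24), while Bhlhe22 and Gbx2 had log2 fold changes of 0.54 ± 0.58 and -0.70 ± 0.77. Proneural genes of dorsal stripes such as Atoh1, Neurog1 and Ptf1a, and Gsx1 and Gsx2, were under 1 CPM on average. The other intermediate list had 4 of 6 genes tested, with Irx1, Irx2 and Pax2 at log2 fold changes of -0.46 ± 0.26, 0.51 ± 0.29 and 1.63 ± 1.39. The other ventral list had 5 of 9 genes tested, all 5 with values below 0 and a median of -0.45, and Neurog2, Nkx6-2 and Sim1 had log2 fold changes of -0.45 ± 0.51, -0.44 ± 0.51 and -0.47 ± 0.70. Nkx2-2 and Nkx2-9, markers of the stripe next to the floor plate, were under 1 CPM on average. In the floor plate list 5 of 7 genes were tested, and Foxa2, which also marks endoderm and notochord, had 16.7 and 15.1 CPM in untreated libraries and 23.4 and 28.5 CPM in dTAG-13 libraries (log2 fold change 0.70 ± 0.20). Slit1 and Spon1 had log2 fold changes of -0.53 ± 0.34 and -0.75 ± 0.54, and Ferd3l, a floor plate gene, had 0 reads in every library.

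Close relatives of the members did not move as one. Of 13 paralogs 8 were tested, 4 with values below 0 and 4 above, with a median of 0.25; 4 were higher in both numbers, against 27.7% of all genes. Msx3 and its paralogs Msx1 and Msx2 had values of opposite sign. In the Iroquois family Irx4, at 1.13 and 1.60 CPM in untreated libraries and 2.82 and 7.90 CPM in dTAG-13 libraries (log2 fold change 1.97 ± 0.60), and Irx2 were above 0, and Irx1, Irx3 and Irx5 below it. Zic5, 9726 bases from Zic2, was at 7.16 and 22.3 CPM in untreated libraries and 6.99 and 22.0 CPM in dTAG-13 libraries. Its groups overlapped like those of Zic2, and it shared with Zic2 the higher level in replicate 2. Nkx6-3, Olig1, Dbx2, Zic4 and Irx6 did not have enough counts.

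The coding genes on either side of the members were compared in the same way. Of 18 such neighbours that are not members 11 were tested, with a median of -0.02 and values from -0.60 (Gpat3) to 0.59 (Nav2), a size like that of Irx5. Nav2, 21409 bases from Dbx1, had 84.7 and 97.4 CPM in untreated libraries and 112 and 161 CPM in dTAG-13 libraries, opposite in direction to Dbx1. Rcn1 and Immp1l beside Pax6 had log2 fold changes of -0.04 and -0.12, Gpat3 beside Nkx6-1 of -0.60 ± 0.46, Tnfaip3 and Ifngr1 beside Olig3 of -0.43 and 0.17, Zfp511 beside Msx3 of -0.02, Tbc1d2b beside Zic1 of 0.11 and Pcca beside Zic2 of -0.16. Gm42134, 4932438H23Rik, Htatip2, Caly, Plscr5, Irx6 and Olig1 did not have enough counts. Some members overlap other genes, and no source used here gives the strand setting. Zic4 overlaps Zic1 on the other strand and had 0 to 5 reads per library, Elp4 overlaps Pax6 in RefSeq and had 48.6 and 59.5 CPM in untreated libraries and 47.3 and 50.4 CPM in dTAG-13 libraries, and the antisense genes Pax6os1 and Irx3os were not analysed here.

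Over the 4 libraries the median deviation of the members from their own mean log2 CPM was 0.23 and 0.92 in untreated replicates 1 and 2 and -0.82 and -0.42 with dTAG-13. Among 12431 other genes the 5 nearest to this profile by Euclidean distance included Crabp2 (distance 0.178), Lrrc4b (0.203), Tmem132c (0.256) and Hoxb1 (0.266). Crabp2, which encodes a cellular carrier of retinoic acid, was at 101 and 180 CPM in untreated libraries and 46.1 and 61.6 CPM in dTAG-13 libraries, and Lrrc4b, a synaptic adhesion protein, was at 2.56 and 4.004 CPM against 1.02 and 1.27 CPM. Likeness over 4 libraries is a description and was given no test.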

How the data were processed

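Libraries were made after ribosomal RNA depletion, per the labels' protocols. Each library has 1 deposited table of unnormalised read counts by gene symbol. The submitters' processing notes list GRCm38.p6 and mm10 as builds and name HTSeq 0.12.4, STAR 2.7.6a, fastp 0.20.1 and DESeq2 1.34.0, without saying what each did. The summary rows that close a table entered neither the library sizes nor the tests. In R 4.3.3, edgeR 4.0.16 was run on all genes and all 4 libraries with the group as the only term: filterByExpr (minimum count 10, minimum total 15), TMM factors, estimateDisp, robust glmQLFit, a two-sided glmQLFTest and Benjamini-Hochberg adjustment over 13602 genes at 0.05. Each standard error was derived from the F statistic (size of the log2 value over root F). CPM values use TMM library sizes, and log2 CPM adds a prior count of 2. Exact intervals (Clopper-Pearson, 95%) come from the counts. Replicates of a group differed beyond sampling noise (chi-square per degree of freedom 38.4 and 32.7). The common dispersion gave a variation of 21.7% between replicates. The test was first tried on simulated data, in which every gene had the common dispersion and the replicate numbers did not differ. That trial does not show how the test performs on the spread seen here. DESeq2 1.42.0, other factors and filters, a replicate block and leaving out each library were alternatives.

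The members and all lists were chosen with earlier results of these data known, so no list was given a test. Named genes were the members, the 3 genes of smallest p in each other list whose average log2 CPM was 0 or more, all paralogs, the nearest coding neighbours, and the 5 genes nearest in profile whose average log2 CPM was 1 or more. Coordinates and promoters are RefSeq's for GRCm38.p6, and exon lengths and strands GENCODE's for the same build. Per-length levels use the union of exons. Some genes that the rule named are not reported here, though counts and medians of their lists include them.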

Additional observations from a re-analysis of the deposited data

How the results depend on the processing

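Over all genes tested, 0 were called with edgeR's quasi-likelihood test (479 at an unadjusted p under 0.05), 40 with DESeq2 and 636 with the replicate number as a block. The replicate block called 6 members as lower, against 1.77% of all genes: Pax6 (log2 fold change -2.31, adjusted p = 9.50e-11), Irx3 (-1.001, 2.42e-09), Dbx1 (-2.82, 9.08e-06), Nkx6-1 (-2.05, 6.81e-05), Olig2 (-2.95, 0.00373) and Zic1 (-1.44, 0.00468), all with edgeR. Irx5, Msx3, Olig3 and Zic2 did not pass with it. The block adds a term to a fit on 4 libraries, so few degrees of freedom are left. The spread of each gene is then taken largely from other genes. Its small p-values thus do not rest on replication of a gene beyond 2 libraries a group. Of the members called, Dbx1, Nkx6-1 and Olig2 had passed the filter only through the untreated libraries, where they are high. The labels give only the number as a link between libraries, so whether the numbers pair the cultures is not known. The difference between replicates 1 and 2 had a correlation of 0.63 between the groups across 13602 genes. Same-numbered libraries thus shared part of that difference. DESeq2 called Irx3 (-1.03). With at least 50 counts in 2 libraries, 6 members were left, with medians of -0.83 over all, -0.50 dorsal and -1.04 intermediate, and no ventral value. The balance of dorsal over other factors was 1.336 without Pax6, Irx3 and Irx5. That value sets the dorsal members against Dbx1, Nkx6-1 and Olig2 alone, which passed the filter only through the untreated libraries. Low values with dTAG-13 were thus built into it. The balance was 0.56 with at least 50 counts in 2 libraries. In alternatives chosen after seeing the data, it was 0.68 without Zic2 and 0.64 without Olig2 and Dbx1. DESeq2 gives no value for it. Of 96 member values under 10 alternatives, 92 were below 0. The 4 others are Zic2 and Olig3 without untreated replicate 2 or dTAG-13 replicate 1. These values refit the same 4 libraries and are not independent results. No change of factors, filter or fit altered a sign, and only leaving out a library did.

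With each library left out, genes called stayed at 0. The median of all members ranged from -1.74 to -0.98, dorsal from -1.66 to 0.071 (without untreated replicate 2), intermediate from -2.13 to -0.98 and ventral from -2.95 to -2.18, and the balance from 0.34 to 1.47. Zic2 ranged from -0.93 to 0.68 and Olig3 from -2.44 to 0.96. List medians ranged from -0.13 to 0.44 for roof plate, -1.09 to 0.37 for other dorsal, -0.19 to 0.81 for other intermediate, -0.99 to -0.13 for other ventral and -0.16 to 0.20 for floor plate genes, and from -0.11 to 0.87 for paralogs. Members at an unadjusted p under 0.05 numbered 4 to 6. A group left with 1 library is assumed to vary like the other. Olig2, Dbx1, Msx3 and Nkx6-1 rest on at most 62 reads per library, which limits their precision.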
